A study of Homo sapiens with 18 samples.

Results

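The 34 genes described here encode the enzymes of sterol and fatty acid synthesis together with the proteins that switch them on and off, and they were chosen by symbol as genes of the sterol regulatory element binding protein (SREBP) pathway. All 34 were found among the 28266 gene rows of the count table. They fall into 18 enzymes of sterol synthesis, 8 enzymes of fatty acid synthesis, 5 regulators, 2 sterol transport genes and 1 enzyme of glycerolipid synthesis, the last being LPIN1.

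RNA was measured by poly(A) RNA-seq in IMR90 ER:RAS cells, a human lung fibroblast line that carries an oncogenic RAS fused to an oestrogen receptor part, so that 4-hydroxytamoxifen (4OHT) switches RAS on and the cells become senescent. Cells received 100 nM 4OHT (senescent) or DMSO (control) and were cultured for 7 days, and for the next 3 days they were given DMSO, IMP1088 (300 nM) or DDD86481 (1.5 µM) until collection on day 10. IMP1088 and DDD86481 inhibit the N-myristoyltransferases (NMT), the enzymes that attach the fatty acid myristate to the N terminus of proteins. The 6 groups of 3 libraries are control DMSO, control IMP1088, control DDD86481, senescent DMSO, senescent IMP1088 and senescent DDD86481. All carry the same fusion, and the labels give their genotype as WT and name no clone. The labels do not say whether replicates came from separate cultures. The legend of an expression heatmap in the study, for cells with these treatments and doses, gives n = 3 and describes n as independent experiments. It does not name single libraries. Each p-value measures only the spread between these libraries, all from the same cell line.

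Cholesterol synthesis starts from acetyl-CoA and runs through the mevalonate pathway to farnesyl pyrophosphate, then through squalene and lanosterol to cholesterol. Fatty acid synthesis uses the same acetyl-CoA, which is made into palmitate and then elongated and desaturated. Both branches are transcribed under SREBP factors, which are made as precursors in the membrane of the endoplasmic reticulum. When sterols are low, SCAP escorts the precursors to the Golgi, where proteases release the active part, and when sterols are high, INSIG proteins hold SCAP back. SREBP-2, the product of SREBF2, is known mainly for the sterol branch, and SREBP-1, the product of SREBF1, mainly for the fatty acid branch. Fibroblasts make their own cholesterol and fatty acids in culture and also take both up from serum.

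Library totals ran from 16143716 to 23189950 counts, and 14341 genes passed the filter on low counts, all 34 members among them. Levels are given as CPM, the counts of a gene scaled to the library total after TMM normalization, and a fold change is a log2 value from edgeR with its standard error (SE). A gene is called when its Benjamini-Hochberg adjusted p in the quasi-likelihood test, taken over the 14341 genes, is under 0.05. The 10 fibroblast markers were detected in every group and summed to 24328 to 30469 CPM in control DMSO and 16459 to 16865 CPM in senescent DMSO. VIM rose from 5035 to 11681 CPM, whereas 8 of the 10 fell in senescent cells, among them COL1A1 (7600 to 3208 CPM), COL1A2 (7319 to 708 CPM), COL3A1 (3701 to 296 CPM), DCN (3042 to 7.73 CPM) and LUM (314 to 8.39 CPM). The 5 adipocyte markers summed to between 0 and 0.437 CPM in any library, with ADIPOQ, PLIN1 and LEP at or below 3 counts in every library, so the defining genes of fat cells were at or near 0. Markers of other types were not all at 0. The leukocyte list summed to 15.2 to 20.1 CPM in control DMSO and 119 to 150 CPM in senescent DMSO, mostly CD68. Of its 4 markers, 2 in control DMSO and 3 in senescent DMSO exceeded 3 counts in at least 1 library. CD3E stayed at or under 3 counts in every library. The endothelial list summed to 1.09 to 1.89 CPM in control DMSO and 24.6 to 33.9 CPM in senescent DMSO. Of its 4 markers, 3 in control DMSO and all 4 in senescent DMSO exceeded 3 counts in at least 1 library. The epithelial list summed to 104 to 148 CPM in control DMSO and 34.3 to 39.1 CPM in senescent DMSO. Of its 5 markers, 4 exceeded 3 counts in at least 1 library of each group, and CDH1 was at or under 3 counts in both groups. What part these markers of other types have in the results below was not tested.

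One library stands apart. Control DMSO replicate 3 differed from control DMSO replicates 1 and 2 by chi-square values of 98.8 and 50 per gene, against 4.89 to 25.5 for all other replicate pairs. The fatty acid enzymes share in this spread, with a median deviation from the group mean of 0.40 on the log2 scale in replicate 1, -0.01 in replicate 2 and -0.38 in replicate 3. The sterol enzymes deviated by 0.03, -0.13 and 0.13. Counts, branch medians and the values that moved most without replicate 3 are therefore also given without it.

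The promoters of 5 members are shown to set genes that rose beside 1 that did not rise with them, and because the response of SREBF2 to both inhibitors differed between control and senescent cells. Each line is the 190 bases before the RefSeq start site (GRCh38.p14), read 5′ to 3′ on the strand of the gene, with matches to TCACNCCAC (a sterol regulatory element, SRE) or to CCAAT (the box bound by NF-Y, a known partner of SREBP) in capitals. Both strands were searched, so ATTGG in capitals is a CCAAT box on the other strand.
HMGCS1 (chr5:43313413-43313602, minus strand): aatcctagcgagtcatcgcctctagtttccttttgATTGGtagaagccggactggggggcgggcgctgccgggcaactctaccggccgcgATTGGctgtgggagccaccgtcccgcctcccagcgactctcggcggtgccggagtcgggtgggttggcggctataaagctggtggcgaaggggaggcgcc
MSMO1 (chr4:165327479-165327668, plus strand): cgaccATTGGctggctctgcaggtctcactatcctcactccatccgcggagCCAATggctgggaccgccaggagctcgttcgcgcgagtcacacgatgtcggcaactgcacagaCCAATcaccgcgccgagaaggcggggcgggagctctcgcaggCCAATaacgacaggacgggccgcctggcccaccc
PMVK (chr1:154936720-154936909, minus strand): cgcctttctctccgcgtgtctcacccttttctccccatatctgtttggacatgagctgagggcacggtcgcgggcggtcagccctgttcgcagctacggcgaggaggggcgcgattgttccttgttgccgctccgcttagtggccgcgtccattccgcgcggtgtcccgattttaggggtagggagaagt
SREBF2 (chr22:41832915-41833104, plus strand): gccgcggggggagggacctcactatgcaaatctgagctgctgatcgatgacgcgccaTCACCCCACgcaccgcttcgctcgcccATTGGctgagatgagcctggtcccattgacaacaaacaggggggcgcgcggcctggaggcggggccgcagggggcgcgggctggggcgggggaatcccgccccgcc
INSIG1 (chr7:155297688-155297877, plus strand): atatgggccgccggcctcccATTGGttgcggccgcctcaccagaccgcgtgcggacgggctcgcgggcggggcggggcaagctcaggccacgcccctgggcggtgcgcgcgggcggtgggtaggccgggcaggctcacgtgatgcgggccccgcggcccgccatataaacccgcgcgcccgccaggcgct

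The MSMO1 stretch holds 4 CCAAT boxes and that of HMGCS1 holds 2. The SREBF2 and INSIG1 stretches hold 1 each, and that of PMVK holds 0. RefSeq promoters, which run from 250 bases before to 50 bases after the start, were at hand for 30 of the 34 members, and ACAT2, FDFT1, SQLE and FASN were not analysed for motifs. Of these 30, 18 (60%) hold CCAAT, against 36.4% of 15842 protein-coding promoters. By role, CCAAT was found in 12 of 15 sterol enzyme promoters, 3 of 7 fatty acid enzyme promoters and 2 of 5 regulator promoters. The 5 stretches shown do not stand for the whole list. IDI1, CYP51A1, NPC1 and FADS1 were higher in senescent cells and held no CCAAT, whereas LSS, whose groups overlapped, held it. Whether CCAAT goes with a rise was not tested. GGGCGG, the GC box bound by Sp1, was found in 28 of 30 (93.3%), against 58.5% of all. TCACNCCAC was found only in SREBF2 among the 30 (3.33%), against 1.17% of all. These matches describe letters in a window and are not evidence of binding.

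The first comparison asked how the pathway differed between senescent and control cells that both received DMSO. Nearly the whole list was higher in senescent cells: 32 of the 34 genes rose and 2 fell, PMVK and SCAP. Among all genes tested, 32.5% were called higher and 36.0% lower. In 30 of the 34, every senescent library lay above every control library, and in 1 every senescent library lay below. Over all genes these shares were 32.4% and 35.2%. The median log2 fold change of the 34 was 1.61, against -0.05 for all genes. Without control DMSO replicate 3, 31 rose and 1 fell, since LSS and PMVK lost their calls. Because these are bulk libraries, a difference in the number of cells that express a gene cannot be told apart from a difference in RNA per cell.

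**Figure D1:**
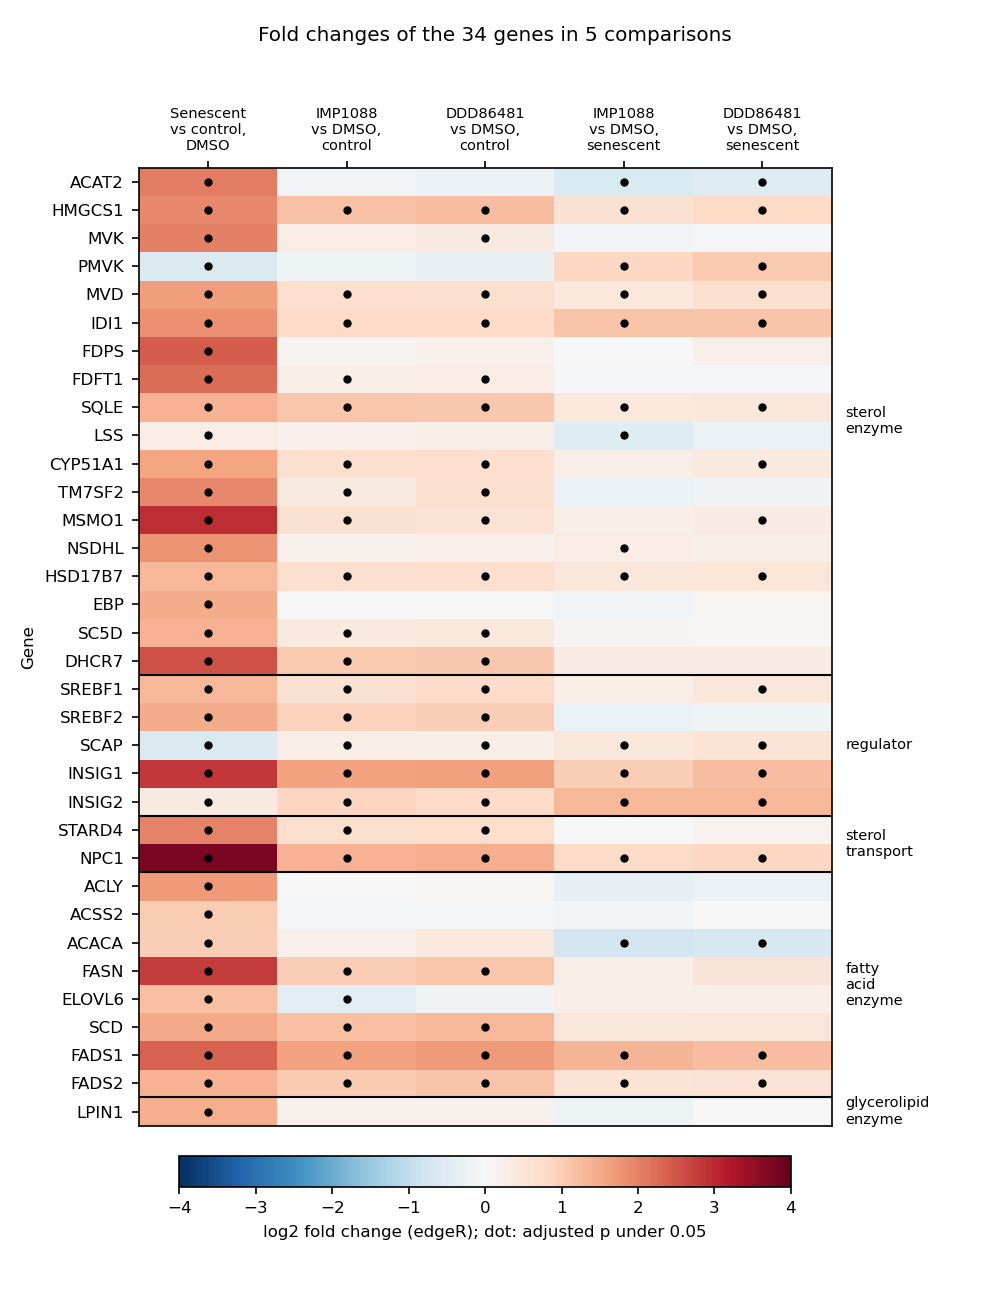
Log2 fold change of each of the 34 genes (rows, grouped by role) in 5 comparisons (columns), from blue (lower) to red (higher), with a dot where the adjusted p is under 0.05. The first column is red for 32 genes and blue for PMVK and SCAP; the inhibitor columns are paler.

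The sterol enzymes had a median log2 fold change of 1.82 in this comparison, with 17 higher and 1 lower. The largest rise was that of MSMO1, which removes methyl groups from sterols after lanosterol. MSMO1 stood at 49.3, 42.7 and 47.1 CPM in the control DMSO libraries and at 368, 373 and 331 CPM in the senescent DMSO libraries. The groups lay far apart, and the difference was 2.95 ± 0.13 on the log2 scale (adjusted p = 3.25e-14). DHCR7, which carries out a last step of cholesterol synthesis, had 46.1, 30.1 and 27.0 CPM in control and 192, 189 and 216 CPM in senescent libraries. The lowest senescent library was again well above the highest control library, and DHCR7 rose by 2.53 ± 0.18 (adjusted p = 1.01e-10).

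The enzymes around the branch point to squalene were next. FDPS, which makes farnesyl pyrophosphate, stood at 78.6, 78.3 and 95.0 CPM in control and 395, 442 and 499 CPM in senescent libraries. FDFT1, which joins farnesyl pyrophosphate into squalene, stood at 106, 95.0 and 114 CPM against 458, 468 and 537 CPM. Neither pair of groups overlapped, and the log2 fold changes were 2.41 ± 0.11 for FDPS and 2.22 ± 0.09 for FDFT1. ACAT2, which condenses acetyl-CoA at the start of the pathway, rose by 2.04 ± 0.12, and HMGCS1, which adds the third acetyl unit, rose by 1.92 ± 0.15. MVK, the mevalonate kinase, rose by 2.00 ± 0.14. TM7SF2 (1.93 ± 0.11), IDI1 (1.83 ± 0.11), NSDHL (1.81 ± 0.11), MVD (1.66 ± 0.15), CYP51A1 (1.57 ± 0.10), EBP (1.50 ± 0.15), SC5D (1.39 ± 0.13), SQLE (1.39 ± 0.11) and HSD17B7 (1.33 ± 0.18) rose less, all with senescent libraries above every control library. SQLE, the squalene epoxidase, is known as a rate-limiting step of the later pathway, and CYP51A1 is the lanosterol demethylase.

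LSS and PMVK stood outside this pattern. LSS, which folds squalene epoxide into lanosterol, was at 123, 113 and 99.9 CPM in control and 121, 136 and 157 CPM in senescent libraries. These groups overlap, and its log2 fold change of 0.30 ± 0.11 (adjusted p = 0.0172) lost its call in 3 of the 6 fits that left out 1 library, and its adjusted p rose to 0.122 once senescent DMSO replicate 3 was left out. PMVK, the kinase between MVK and MVD, was at 20.8, 26.9 and 40.4 CPM in control and 18.4, 17.4 and 23.3 CPM in senescent libraries. These groups also overlap, and the log2 fold change was -0.57 ± 0.20 (adjusted p = 0.0143). It was -0.27 (adjusted p = 0.15) without control DMSO replicate 3, the library with the highest PMVK level. The enzymes on each side of LSS and PMVK rose with senescent libraries above every control library.

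All 8 fatty acid enzymes rose, with a median log2 fold change of 1.46. FASN, the synthase that builds palmitate, had 132, 94.7 and 55.1 CPM in control and 631, 644 and 685 CPM in senescent libraries. The control libraries spread over a wide range but stayed far below the senescent ones, and FASN rose by 2.80 ± 0.24 (adjusted p = 1.9e-09), or by 2.52 without control DMSO replicate 3. FADS1, a desaturase of polyunsaturated fatty acids, had 78.9, 54.1 and 46.4 CPM against 307, 304 and 309 CPM. Here the senescent libraries were almost the same and the control libraries were not, and FADS1 rose by 2.36 ± 0.20. ACLY, which makes cytosolic acetyl-CoA from citrate, rose by 1.70 ± 0.16, SCD, which makes oleate from stearate, by 1.52 ± 0.21, and FADS2, the desaturase that acts before FADS1, by 1.40 ± 0.15. ELOVL6, which elongates palmitate, rose by 1.20 ± 0.13, ACSS2, which makes acetyl-CoA from acetate, by 1.00 ± 0.11, and ACACA, which makes malonyl-CoA, by 0.97 ± 0.23. ACACA was the least steady of these, at 88.5, 56.6 and 33.1 CPM in control against 114, 120 and 117 CPM in senescent libraries, and its value without control DMSO replicate 3 was 0.69 (adjusted p = 0.00222). LPIN1, which makes diacylglycerol, rose by 1.45 ± 0.13.

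The sterol enzymes had a higher median than the fatty acid enzymes, but the ranges of single genes, -0.57 to 2.95 and 0.97 to 2.80, covered each other. Without control DMSO replicate 3 the medians were 1.86 and 1.32, and without replicate 1 they were 1.79 and 1.72. The summed level of the 18 sterol enzymes was 790 ± 44.8 CPM (SD, n = 3) in control DMSO and 2863 ± 150 CPM in senescent DMSO, and that of the 8 fatty acid enzymes was 820 ± 232 and 2823 ± 111 CPM. In the fatty acid sum the control libraries ranged from 608 CPM in replicate 3 to 1067 CPM in replicate 1, whereas the sterol sum stayed between 740 and 825 CPM.

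**Figure D2:**
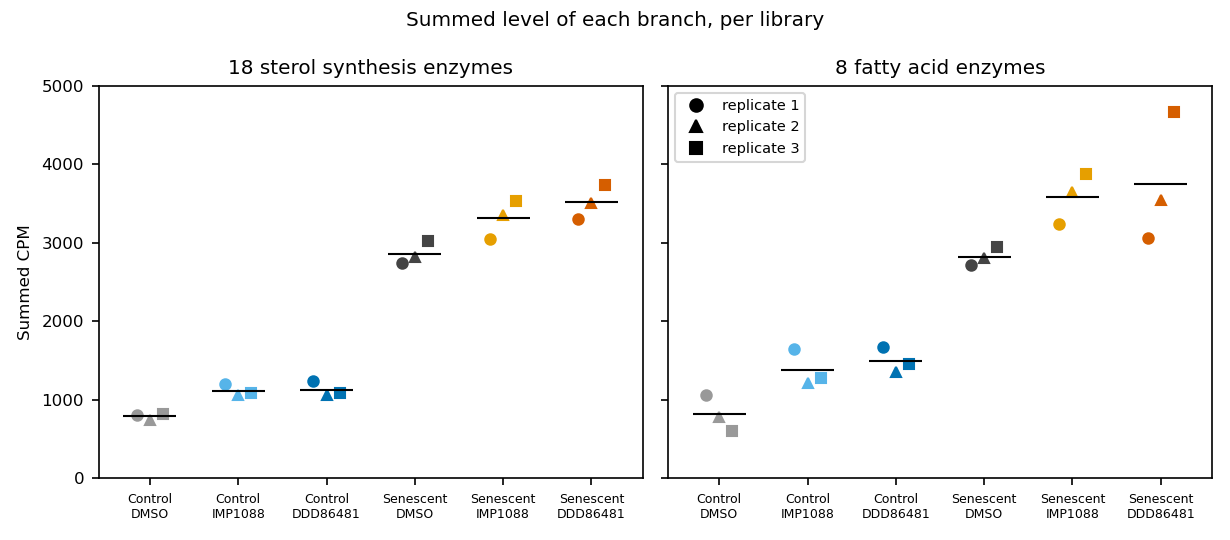
Summed CPM of the sterol synthesis enzymes and the fatty acid enzymes in each of the 18 libraries (symbols mark the replicate number, lines the group mean). Senescent libraries lie at 2738 CPM or more for sterol and 2723 CPM or more for fatty acid enzymes, and the fatty acid sums spread most in senescent DDD86481.

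The regulators split. INSIG1, which retains SCAP and is itself an SREBP target, stood at 25.7, 18.5 and 17.9 CPM in control and 176, 140 and 129 CPM in senescent libraries. SREBF2 stood at 166, 121 and 107 CPM against 355, 352 and 386 CPM. In both genes the groups were well separated, and INSIG1 rose by 2.84 ± 0.22 and SREBF2 by 1.47 ± 0.12. SREBF1, at 24.9, 22.8 and 22.0 CPM against 55.8, 61.1 and 57.6 CPM, rose by 1.32 ± 0.13. SCAP, the escort of both factors, went the other way, from 91.0, 94.2 and 87.2 CPM to 59.3, 55.8 and 65.6 CPM. The groups did not overlap, and SCAP fell by 0.59 ± 0.10 on the log2 scale (adjusted p = 1.52e-05), or by 0.62 without control DMSO replicate 3. INSIG2, the second retention protein, had overlapping groups, with 16.9, 19.4 and 24.6 CPM against 25.7, 28.6 and 23.5 CPM, and a log2 fold change of 0.36 ± 0.12 (adjusted p = 0.0144) that had an adjusted p of 0.0888 without control DMSO replicate 1.

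The largest change of all 34 genes was that of NPC1, which moves cholesterol out of lysosomes. NPC1 stood at 15.4, 10.1 and 6.32 CPM in control and 154, 146 and 137 CPM in senescent libraries, a log2 fold change of 3.76 ± 0.22 (13.6-fold, adjusted p = 5.98e-12) and of 3.51 without control DMSO replicate 3. STARD4, which carries cholesterol through the cytosol, had 24.4, 20.2 and 20.5 CPM against 85.3, 99.0 and 75.7 CPM and rose by 2.00 ± 0.13. Both genes were higher in every senescent library than in any control library.

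**Figure D3:**
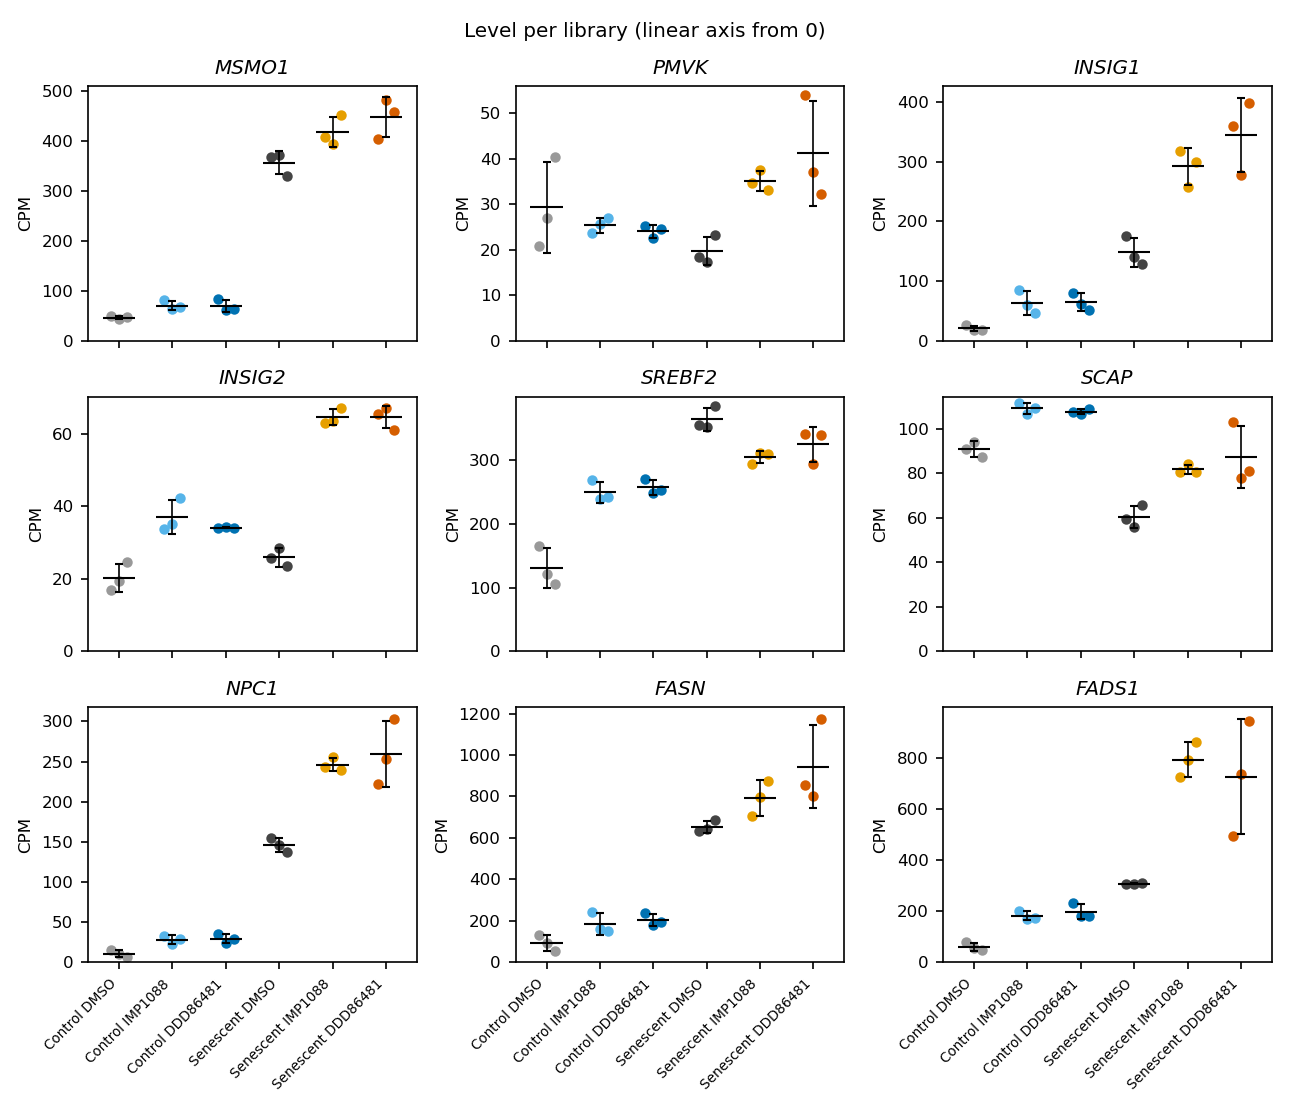
CPM (linear axes from 0) of 9 members in each library of the 6 groups, with points for libraries and lines for the mean and SD of 3. MSMO1, NPC1 and FASN are higher in every senescent library than in any control library, SREBF2 rises with the inhibitors in control but not in senescent cells, and PMVK rises with them in senescent but not in control cells.

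Per kb of exonic sequence, which allows levels of different genes to be compared, ACLY was the highest of the 34 genes in both DMSO groups, at 46.1 ± 11.8 CPM per kb in control and 149 ± 6.59 in senescent cells (SD, n = 3). In control cells PMVK (29.3 ± 9.97), SCD (25.9 ± 9.25) and FDPS (22.6 ± 2.57) followed, with SDs that overlapped each other. The SD of ACLY also overlapped those of PMVK and SCD. In senescent cells the next were MSMO1 (125 ± 8.08) and FDPS (120 ± 14), which did not differ beyond their SDs, and then FDFT1 (96.0 ± 8.50). MSMO1 was in 7th place in control cells, while PMVK went from 2nd to 19th and SCAP from 11th to 29th. HSD17B7 and MVK were the lowest in senescent cells, at 2.46 ± 0.30 and 4.29 ± 0.46 CPM per kb. In control cells HSD17B7 (0.97 ± 0.16), MVK (1.07 ± 0.14) and NPC1 (1.10 ± 0.47) were at the bottom and did not differ beyond their SDs. Lengths came from a GRCh37 annotation and count every annotated exon, so a gene with a long, little used exon has a lowered value.

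**Figure D4:**
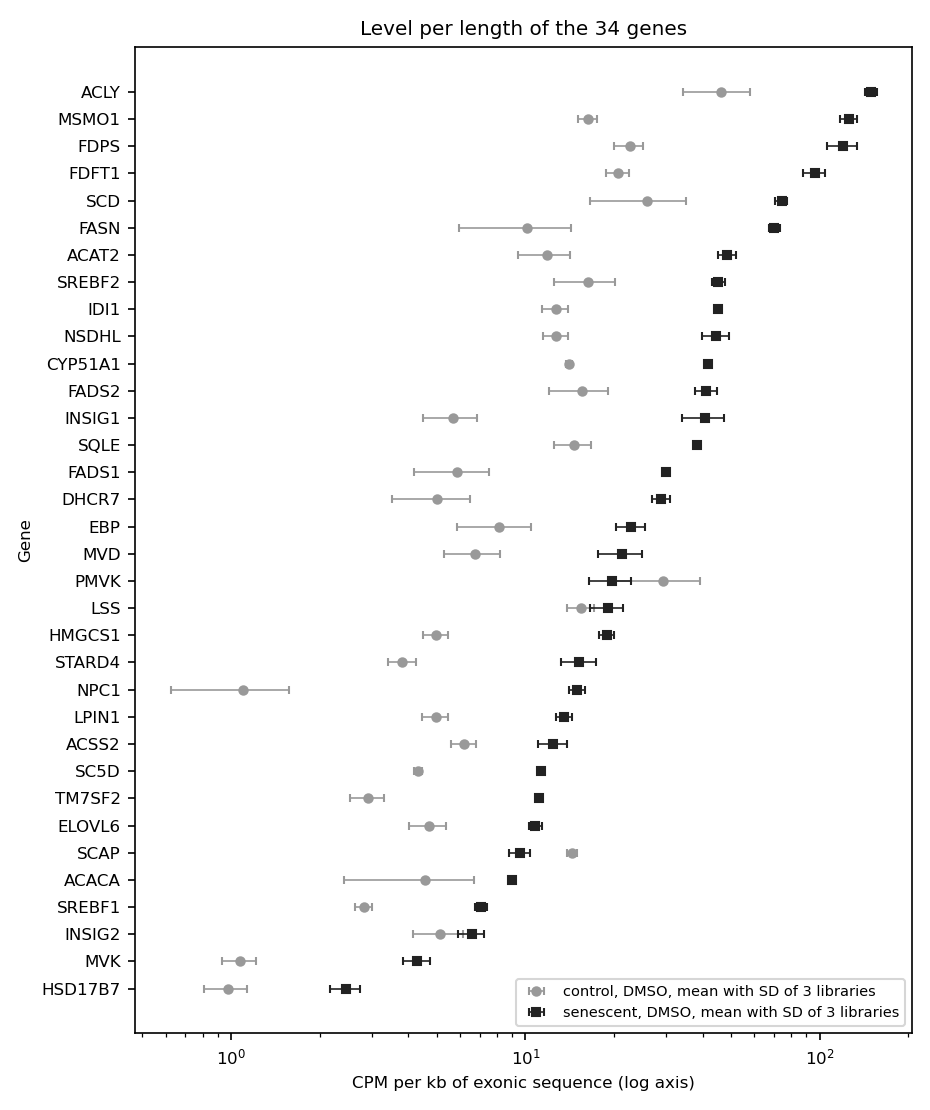
CPM per kb of exonic sequence (log axis) of the 34 genes in control DMSO and senescent DMSO, as mean and SD of 3 libraries, ordered by the senescent level. ACLY is at the top in both groups, and PMVK and SCAP are the genes whose senescent mean lies below the control mean.

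The next comparisons asked what the NMT inhibitors did in control cells. With IMP1088, 22 members rose, 1 fell and 11 were not called, where 16.3% of all genes were called higher and 17.4% lower. With DDD86481, 23 rose, 0 fell and 11 were not called, where 17.8% of all genes were called higher and 18.7% lower. All IMP1088 libraries lay above every DMSO library for 23 members and below for 1, against 20.1% and 21.3% of all genes. With DDD86481 this was so for 25 and 0 members, against 21.4% and 22% of all genes. The 2 comparisons share the same DMSO libraries and are therefore not independent, and because the doses differ the compounds were not tested against each other. The median of the 34 was 0.61 with IMP1088 and 0.64 with DDD86481, against 0.00 for all genes in both. Without control DMSO replicate 3, IMP1088 gave 21 higher and 1 lower, and DDD86481 gave 22 higher and 0 lower.

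All 5 regulators and both transport genes rose with each inhibitor. INSIG1 stood at 85.1, 59.5 and 46.3 CPM with IMP1088 and 80.6, 61.7 and 50.9 CPM with DDD86481, all above the highest control DMSO value of 25.7. Its log2 fold changes were 1.62 ± 0.21 and 1.64 ± 0.21 (adjusted p = 7.94e-06 and 7.44e-06). SREBF2 reached 269, 239 and 242 CPM with IMP1088 and 271, 249 and 253 CPM with DDD86481. No inhibitor library overlapped the DMSO libraries, and SREBF2 rose by 0.93 ± 0.12 and 0.97 ± 0.12. NPC1, at 33.0, 22.5 and 29.0 CPM and at 35.3, 23.6 and 28.7 CPM, rose by 1.39 ± 0.21 and 1.45 ± 0.21. SREBF1 rose by 0.61 ± 0.13 with IMP1088 and 0.76 ± 0.13 with DDD86481, but the IMP1088 value was 0.40 without control IMP1088 replicate 1, the library with the highest SREBF1 level. INSIG2 rose by 0.87 ± 0.12 and 0.75 ± 0.12, and STARD4 by 0.66 ± 0.13 and 0.69 ± 0.13. SCAP rose least, by 0.27 ± 0.09 and 0.25 ± 0.09 (adjusted p = 0.0349 and 0.0468), and those calls did not last: without control DMSO replicate 3 the adjusted p was 0.0776 and 0.105.

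Of the 18 sterol enzymes, 11 rose with IMP1088 and 12 with DDD86481, with medians of 0.38 and 0.50. HMGCS1 stood at 35.1, 34.7 and 29.3 CPM in DMSO, 87.6, 65.2 and 68.8 CPM with IMP1088 and 94.2, 69.7 and 69.2 CPM with DDD86481. The inhibitor libraries were all above the DMSO libraries, and HMGCS1 rose by 1.16 ± 0.15 and 1.23 ± 0.15. SQLE rose by 1.10 ± 0.11 and 1.08 ± 0.11, and DHCR7 by 1.03 ± 0.17 and 1.09 ± 0.17. IDI1, which isomerises isopentenyl pyrophosphate, rose by 0.75 ± 0.11 with both. MVD, CYP51A1, HSD17B7, MSMO1, SC5D, TM7SF2 and FDFT1 also rose with both, by 0.26 to 0.68, and MVK rose with DDD86481 alone (0.36 ± 0.14, adjusted p = 0.0494, against 0.30 ± 0.14 with IMP1088, adjusted p = 0.103), a call lost without control DMSO replicate 2 (adjusted p = 0.191). The calls of FDFT1, TM7SF2 and SCAP with IMP1088 were lost when the replicate number was fitted as a block, with adjusted p of 0.07, 0.0548 and 0.0602. Without control DMSO replicate 2 FDFT1 had an adjusted p of 0.105 and 0.066 with IMP1088 and DDD86481, and TM7SF2 had 0.0894 with IMP1088. HSD17B7 and SC5D lost their calls in some fits that left out 1 library, HSD17B7 with adjusted p of 0.0509 (IMP1088) and 0.0651 (DDD86481) without replicate 1 of the inhibitor group, and SC5D with 0.0922 and 0.0718 without the same library.

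ACAT2, PMVK, FDPS, LSS, NSDHL and EBP were not called with either inhibitor. EBP, a sterol isomerase, had log2 fold changes of -0.02 ± 0.15 and 0.02 ± 0.15, and PMVK of -0.20 ± 0.19 and -0.28 ± 0.19. Leaving out control DMSO replicate 3 gave 0.23 and 0.27 for EBP and 0.09 and 0.01 for PMVK, and ACAT2 went from -0.10 and -0.22 to 0.08 and -0.05, none of them called. The values of the mevalonate pathway genes ranged from -0.20 for PMVK to 1.16 for HMGCS1 with IMP1088.

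In the fatty acid branch the response was divided between steps. The desaturases and the synthase rose: FADS1 had 201, 171 and 174 CPM with IMP1088 and 231, 181 and 179 CPM with DDD86481, against at most 78.9 CPM in DMSO, and rose by 1.60 ± 0.19 and 1.72 ± 0.19. SCD, at 189, 123 and 94.9 CPM in DMSO, had 403, 261 and 275 CPM with IMP1088 and 380, 300 and 336 CPM with DDD86481. SCD groups did not overlap, and it rose by 1.21 ± 0.21 and 1.32 ± 0.21. FADS2 rose by 1.04 ± 0.15 and 1.15 ± 0.15, and FASN by 0.97 ± 0.23 and 1.12 ± 0.23. The enzymes that supply acetyl-CoA and malonyl-CoA were not called, with ACLY at -0.02 ± 0.16 and 0.07 ± 0.16, ACSS2 at -0.09 ± 0.11 and -0.05 ± 0.11, and ACACA at 0.21 ± 0.23 and 0.41 ± 0.23. The same fit without control DMSO replicate 3 gave -0.20 and -0.12 for ACLY, -0.17 and -0.13 for ACSS2 and -0.08 and 0.12 for ACACA, again not called. ELOVL6 stood at 39.6, 32.5 and 30.2 CPM in DMSO and 27.5, 22.2 and 27.0 CPM with IMP1088, and it fell by 0.42 ± 0.13 (adjusted p = 0.0191). With DDD86481 it had 35.2, 25.9 and 30.8 CPM, a log2 fold change of -0.16 ± 0.13 that was not called, and the IMP1088 call was lost without control IMP1088 replicate 2 (adjusted p = 0.106).

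The branch medians were 0.38 for sterol and 0.59 for fatty acid enzymes with IMP1088, and 0.50 and 0.76 with DDD86481. That order depended on 1 library. Without control DMSO replicate 3 the medians were 0.42 and 0.31 with IMP1088 and 0.52 and 0.48 with DDD86481, and without replicate 1 the fatty acid medians were 0.93 and 1.08. The sterol sums were 1118 ± 68.8 and 1132 ± 99.1 CPM with IMP1088 and DDD86481, and the fatty acid sums 1381 ± 233 and 1497 ± 166 CPM (SD, n = 3).

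In senescent cells the inhibitors were set against senescent DMSO, where most of the list was already high. With IMP1088, 13 members rose, 3 fell and 18 were not called, where 20.6% of all genes were called higher and 23.9% lower. With DDD86481, 15 rose, 2 fell and 17 were not called, where 20.1% of all genes were called higher and 23.1% lower. All IMP1088 libraries lay above every senescent DMSO library for 19 members and below for 6, against 28.1% and 32.9% of all genes. With DDD86481 this was so for 16 and 4 members, against 24% and 28.7% of all genes. The medians of the 34 were 0.27 and 0.33, against -0.04 for all genes in both. A fit of the 2 IMP1088 groups alone called 26 members, 20 higher and 6 lower. These comparisons also share their DMSO libraries.

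Among the 5 regulators, 3 rose with IMP1088 and 4 with DDD86481. INSIG2 had 25.7, 28.6 and 23.5 CPM in senescent DMSO, 63.0, 63.4 and 67.2 CPM with IMP1088 and 65.5, 67 and 61.1 CPM with DDD86481. The lowest inhibitor library was far above the highest DMSO library, and INSIG2 rose by 1.32 ± 0.12 with both (adjusted p = 4.31e-08 and 5.34e-08). INSIG1 had 319, 258 and 299 CPM with IMP1088 and 360, 277 and 399 CPM with DDD86481, against at most 176 CPM in DMSO, and rose by 0.98 ± 0.20 and 1.22 ± 0.20. SCAP, low in senescent DMSO, rose by 0.44 ± 0.10 to 80.8, 84.2 and 80.5 CPM and by 0.53 ± 0.10 to 103, 77.8 and 81.0 CPM. SREBF1 rose by 0.44 ± 0.12 with DDD86481 (adjusted p = 0.00591) and had a value of 0.25 ± 0.12 with IMP1088 (adjusted p = 0.0987). SREBF2 did not rise: it had 295, 311 and 310 CPM with IMP1088 and 341, 294 and 340 CPM with DDD86481, all below the lowest DMSO library of 352 CPM, and its log2 fold changes of -0.25 ± 0.12 and -0.16 ± 0.12 were not called (adjusted p = 0.0858 and 0.276). NPC1 rose by 0.76 ± 0.19 and 0.83 ± 0.19, and STARD4 had values of 0.02 ± 0.12 and 0.13 ± 0.12.

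Among the sterol enzymes 7 rose and 2 fell with IMP1088, and 8 rose and 1 fell with DDD86481. IDI1 rose most, from 198, 193 and 189 CPM to 385, 411 and 468 CPM with IMP1088 and 376, 443 and 451 CPM with DDD86481, by 1.13 ± 0.10 with each. PMVK, which with LSS stood outside the pattern in senescence, rose to 34.6, 37.5 and 33.1 CPM with IMP1088 and 54.1, 37.0 and 32.2 CPM with DDD86481. The inhibitor libraries were all above the senescent DMSO libraries, and PMVK rose by 0.83 ± 0.20 and 1.06 ± 0.20 (adjusted p = 0.0018 and 0.000197). HMGCS1 rose by 0.62 ± 0.15 and 0.80 ± 0.15, and SQLE by 0.42 ± 0.11 and 0.44 ± 0.11. MVD (0.41 ± 0.14 and 0.63 ± 0.14) and HSD17B7 (0.45 ± 0.17 and 0.48 ± 0.17) rose with both. NSDHL rose with IMP1088 (0.30 ± 0.11), and CYP51A1 (0.41 ± 0.10) and MSMO1 (0.33 ± 0.12) rose with DDD86481.

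The falls were at the start of the pathway and at lanosterol. ACAT2 went from 121, 125 and 138 CPM to 78.8, 87.8 and 85.3 CPM with IMP1088 and 88.9, 91.7 and 88.1 CPM with DDD86481, and fell by 0.61 ± 0.11 and 0.51 ± 0.11 (adjusted p = 0.000167 and 0.000872). LSS went to 84.6, 106 and 103 CPM with IMP1088, below the lowest DMSO library of 121 CPM, and fell by 0.50 ± 0.11. With DDD86481 LSS was at 115, 109 and 124 CPM, and its value of -0.25 ± 0.11 was not called (adjusted p = 0.0637). FDPS and FDFT1, among the strongest in senescence, had values of -0.01 ± 0.10 and -0.09 ± 0.09 with IMP1088 and of 0.20 ± 0.10 and -0.09 ± 0.09 with DDD86481.

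Of the fatty acid enzymes FADS1 and FADS2 rose and ACACA fell with each inhibitor, and 5 were not called. FADS1 had 726, 792 and 863 CPM with IMP1088 and 494, 738 and 946 CPM with DDD86481, against 304 to 309 CPM in DMSO. The groups did not overlap, although the DDD86481 libraries spread widely, and FADS1 rose by 1.37 ± 0.19 and 1.24 ± 0.19. FADS2 rose by 0.53 ± 0.15 and 0.57 ± 0.15. ACACA had 64.5, 64.2 and 79.7 CPM with IMP1088 and 66.0, 64.1 and 93.3 CPM with DDD86481, all below the DMSO libraries at 114 CPM or more, and fell by 0.75 ± 0.23 and 0.65 ± 0.23 (adjusted p = 0.0127 and 0.0295). The ACACA calls were lost without some libraries, with an adjusted p of 0.05 without senescent IMP1088 replicate 2 and 0.114 without senescent DDD86481 replicate 2. FASN (0.28 ± 0.22 and 0.53 ± 0.22) and SCD (0.45 ± 0.21 and 0.49 ± 0.21) were not called.

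Calls at low fold changes here depended on single libraries. With IMP1088, ACACA, HSD17B7, MVD and NSDHL lost their calls in some fits that left out 1 library, with highest adjusted p of 0.05, 0.14, 0.127 and 0.109, and with DDD86481 this was so for ACACA, HSD17B7 and MSMO1, with 0.114, 0.131 and 0.11. The libraries whose removal gave these values were senescent IMP1088 replicate 2 for ACACA, HSD17B7 and NSDHL, senescent DMSO replicate 1 for MVD, senescent DDD86481 replicate 2 for ACACA, senescent DDD86481 replicate 3 for HSD17B7 and senescent DMSO replicate 3 for MSMO1. The branch medians were 0.23 for sterol and 0.28 for fatty acid enzymes with IMP1088, and 0.27 and 0.37 with DDD86481. Without senescent DDD86481 replicate 3, in which FASN stood at 1174 CPM against 804 and 855 CPM in the other replicates, the DDD86481 medians were 0.15 and 0.21.

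Whether the inhibitor response differed between senescent and control cells was tested as an interaction, in which the log2 fold change of control cells is subtracted from that of senescent cells. With IMP1088, 12 members were called, 2 above 0 and 10 below, where 12.1% and 14.2% of all genes were called. With DDD86481, 12 were called as well, 2 above 0 and 10 below, where 14.4% and 15.9% of all genes were called. The median over the 34 was -0.37 and -0.33, against 0.00 and -0.01 over all genes. SREBF2 had the lowest interaction values of the list, at -1.18 ± 0.17 with IMP1088 and -1.14 ± 0.17 with DDD86481 (adjusted p = 4.54e-05 and 6.74e-05). Without control DMSO replicate 3 they were -1.05 and -1.01 (adjusted p = 1.42e-05 and 2.3e-05).

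PMVK had the highest, at 1.03 ± 0.27 and 1.35 ± 0.28, and at 0.74 and 1.05 without control DMSO replicate 3 (adjusted p = 0.02 and 0.00149). SQLE (-0.68 ± 0.16 and -0.64 ± 0.16), TM7SF2 (-0.60 ± 0.15 and -0.77 ± 0.15) and LSS (-0.70 ± 0.15 and -0.49 ± 0.15) were below 0 with each inhibitor, and the LSS call with DDD86481 was lost without control DDD86481 replicate 3 (adjusted p = 0.0693). FADS1, HMGCS1, INSIG1 and NPC1 had interactions that were not called with either inhibitor, at -0.23, -0.54, -0.64 and -0.63 with IMP1088 and -0.48, -0.43, -0.42 and -0.61 with DDD86481. Those of NPC1 were -0.38 and -0.36 without control DMSO replicate 3, and that of FADS1 with IMP1088 was -0.08. By branch, the sterol enzymes had 1 call above and 7 below 0 with IMP1088 and 1 above and 5 below with DDD86481, and the fatty acid enzymes 1 above and 1 below, and 0 above and 3 below. Of the 12 calls with each inhibitor, 6 with IMP1088 and 5 with DDD86481 held in every fit that left out 1 library.

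**Figure D5:**
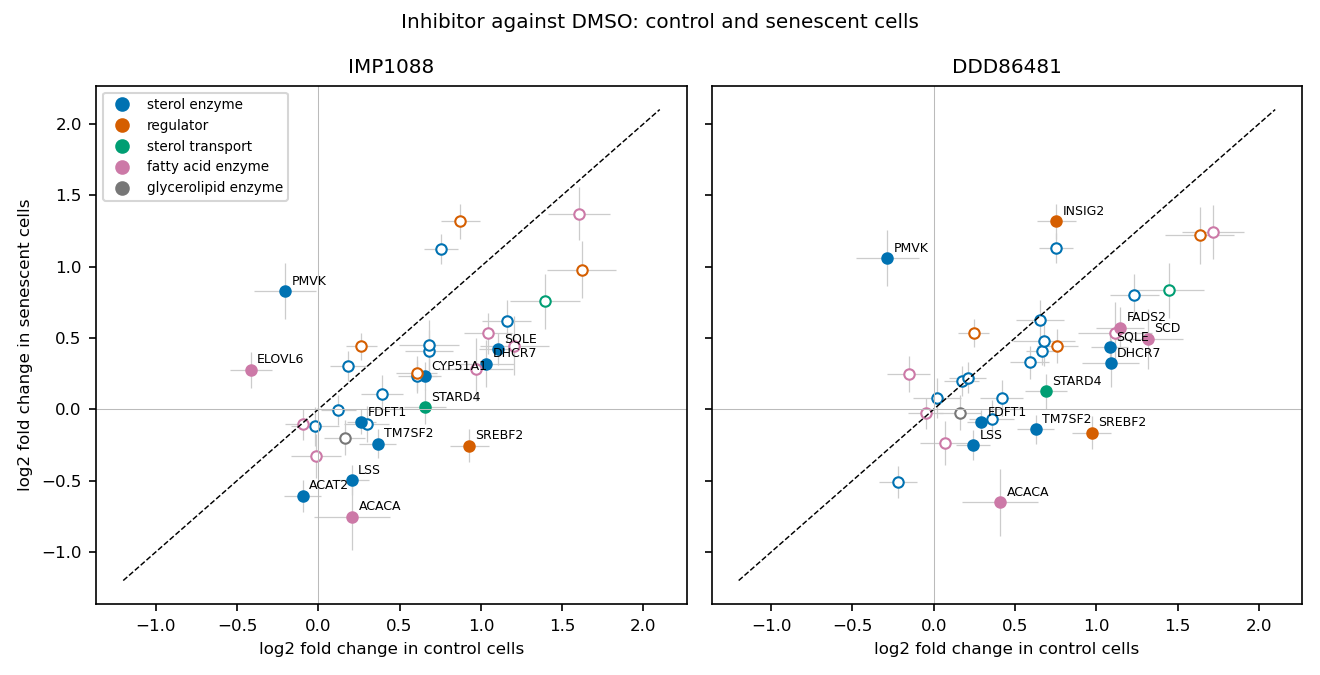
Log2 fold change of each of the 34 genes with the inhibitor in control cells (x axis) and in senescent cells (y axis), for IMP1088 (left) and DDD86481 (right), with SE bars and a dashed line of equal change. Filled points passed the interaction test; most lie below the line, with SREBF2 farthest below it and PMVK farthest above it.

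Related lists were counted in the same fits, and in senescent against control cells with DMSO their counts stand beside 32.5% of all genes higher and 36.0% lower. The shares of higher genes in the SREBP processing, efflux and transport lists were near that of all genes. The SREBP processing list had 3 of 10 genes higher and 1 lower, led by PAQR3, a Golgi anchor of SCAP (1.62 ± 0.11), and ERLIN1, an endoplasmic reticulum lipid raft protein, which fell by 0.40 ± 0.09. In the list for cholesterol efflux, esterification and oxysterols, 3 of 9 tested genes rose and 4 fell. ABCG1, a cholesterol exporter, had 0.605, 0.443 and 0.299 CPM in control and 11.6, 11.6 and 14.4 CPM in senescent libraries, a log2 fold change of 4.76 ± 0.22. NR1H3, the nuclear receptor LXR alpha that is known to drive ABCG1, went the other way, from 21.4, 23.2 and 25.2 CPM to 5.25, 2.93 and 4.89 CPM (-2.41 ± 0.16). In the glycerolipid list 8 of 15 rose and 2 fell, among them DGAT2, which makes triglyceride (4.26 ± 0.19), and LPIN3 (-1.13 ± 0.24).

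Of the other fatty acid synthesis steps, 12 of 18 tested genes rose and 2 fell in senescent cells. ELOVL2, which elongates polyunsaturated fatty acids, went from 30.0, 32.9 and 27.7 CPM to 0, 0.187 and 0 CPM, that is to 3 counts or fewer per library. SCD5, a second stearoyl desaturase, fell by 2.09 ± 0.12 while SCD rose. In the isoprenoid branch 6 of 11 rose and 2 fell, led by RABGGTA, a subunit of the enzyme that prenylates Rab proteins (1.16 ± 0.10), and DHDDS, which makes dolichol chains (0.72 ± 0.10). The lysosomal and membrane cholesterol transport list had 4 of 12 higher and 1 lower, OSBPL1A, an oxysterol binding protein (-1.08 ± 0.11), with GRAMD1C at 0.95 ± 0.19. In fatty acid oxidation 8 of 15 rose and 3 fell, with ACAA2, a mitochondrial thiolase, at -1.49 ± 0.11 and PPARA, a fatty acid receptor, at 1.19 ± 0.18.

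With IMP1088 in senescent cells, where 20.6% of all genes were higher and 23.9% lower, the lysosomal and membrane transport list had 8 of 12 genes higher and 2 lower, with LIPA, the lysosomal cholesterol ester lipase, at 0.91 ± 0.12 and OSBPL2 at 0.86 ± 0.10. In the isoprenoid list 6 of 11 rose and 1 fell, with DHDDS (0.99 ± 0.10) and its partner NUS1 (0.98 ± 0.10) the largest. Among other fatty acid synthesis steps, 3 of 18 rose and 5 fell, shares near those of all genes. ELOVL5, an elongase of polyunsaturated fatty acids that works beside FADS1 and FADS2, had 123, 124 and 111 CPM in senescent DMSO and 392, 366 and 404 CPM with IMP1088 and rose by 1.70 ± 0.11. ELOVL7 was called at levels of 0.579, 0.391 and 0.336 CPM against 0.247, 0.125 and 0.0549 CPM, a few counts per library. The SREBP processing list had 3 of 10 higher and 2 lower, among them ERLIN2 (-0.58 ± 0.09). In the efflux list 3 of 9 rose and 1 fell, with ABCG1 at 0.75 ± 0.15 and LPCAT3, a phospholipid acyltransferase, at -0.76 ± 0.14. In the glycerolipid list 6 of 15 rose and 3 fell, with ACSL5, a fatty acid activating enzyme (0.98 ± 0.14), and LPIN3 (-0.98 ± 0.29), and in fatty acid oxidation 2 of 15 rose and 4 fell, with PPARD (-0.45 ± 0.11) and CPT1C (-0.36 ± 0.10).

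Some member counts are uncertain in origin. In the GRCh37 annotation CYP51A1 shares 68.2% and EBP 36.4% of their exonic bases with other protein-coding models on the same strand. HMGCS1 (37.7%), FDPS (18.6%), ACAT2 (17.2%) and IDI1 (15%) share exonic bases with genes on the opposite strand, and a count made without strand could not separate them. The library kit keeps strand, but the setting of the counting step is not stated. Named pseudogenes exist for FDPS (8), IDI1 (3), CYP51A1 (3), HSD17B7 (2) and SCD (1), and reads of a gene and its near copy can be split between them.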

How the data were processed

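Poly(A) RNA-seq counts of 18 libraries (3 in each of 6 groups) were analysed. The authors deposited 1 table of raw counts per gene. Their methods name TopHat, HTSeq and an older build, whereas the submitters' processing notes list hg38, DRAGEN, STAR 2.7.8a and DESeq2 1.32.0 without saying what each did, so aligner and build are not settled here. The kit was strand-specific and the methods give a first-strand setting for the TopHat alignment, but none for counting. Of 28266 rows, 6836 held no counts in any library.

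Counts were filtered (filterByExpr), scaled by TMM and fitted with edgeR 4.0.16 in R 4.3.3 as 1 quasi-likelihood model of 6 groups without covariates. The 14341 genes left held 99.96% of the counts. Totals ran from 16143716 to 23189950, where 3 counts correspond to 0.121 to 0.187 CPM, counting error only. Same-numbered libraries deviated together in control DMSO and control IMP1088 (r = 0.39, 0.12 and 0.23 for numbers 1 to 3), so the block is given there. On simulated data of 12744 genes for IMP1088 in senescent cells, 87 of 100 2-fold and 50 of 100 1.5-fold changes were called, with 4 false calls, and for the interaction 57 and 16, with 6 false calls. Alternatives were upper quartile scaling, no filter, DESeq2 1.42.0, only the groups compared, the replicate block and leaving out each library.

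The members, related lists, markers and tests were chosen with earlier results of these data known, so no list was tested as a set. Every member is named, and from each related list the 2 called genes with the largest absolute fold change in senescent against control cells with DMSO, and the same for IMP1088 in senescent cells; 1 gene that this rule picks is not reported here. Exonic lengths came from GENCODE v44 lifted to GRCh37 and promoters from RefSeq.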

Additional observations from a re-analysis of the deposited data

Results flagged for a closer look

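The genes below were picked out because their inhibitor response in senescent cells differed from that in control cells by the interaction test, so that a value below 0 stands for a lower log2 fold change in senescent cells. For IMP1088, the interaction log2 values below 0, with the edgeR adjusted p in brackets, were SREBF2 -1.18 (4.54e-05), ACACA -0.96 (0.0373), DHCR7 -0.71 (0.0341), LSS -0.70 (0.00213), SQLE -0.68 (0.00394), STARD4 -0.64 (0.0124), TM7SF2 -0.60 (0.00714), ACAT2 -0.51 (0.0238), CYP51A1 -0.42 (0.0312) and FDFT1 -0.35 (0.0425). Those above 0 were ELOVL6 0.69 (0.00854) and PMVK 1.03 (0.00937).

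For DDD86481, the interaction log2 values below 0, with the edgeR adjusted p in brackets, were SREBF2 -1.14 (6.74e-05), ACACA -1.06 (0.0209), SCD -0.82 (0.0406), TM7SF2 -0.77 (0.00114), DHCR7 -0.76 (0.0217), SQLE -0.64 (0.00535), FADS2 -0.57 (0.0409), STARD4 -0.57 (0.0215), LSS -0.49 (0.0188) and FDFT1 -0.39 (0.0256). Those above 0 were INSIG2 0.56 (0.018) and PMVK 1.35 (0.00139). Both sets rest on the same DMSO libraries. Of the IMP1088 values, those of ACAT2, FDFT1, CYP51A1, DHCR7, STARD4 and ACACA were not called in at least 1 fit that left out a library, and of the DDD86481 values those of FDFT1, LSS, DHCR7, STARD4, ACACA, SCD and FADS2. The causes were not tested.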

How the results depend on the processing

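Of 3026 values of single members under the alternatives, 2749 stayed on their side of the threshold, 96 crossed to a call and 181 lost one. Where either fit gave a call, 0 reversed direction. Among the 2749, 68 that were not called in either fit changed sign. DESeq2 lost no member call. Upper quartile scaling moved the median of all genes from -0.05 to -0.21 in senescent against control cells with DMSO, and the sterol median there from 1.82 to 1.66, and INSIG2 and LSS lost their calls. Fitting only the groups compared gave 26 called members for IMP1088 in senescent cells instead of 16, and 7 for the DDD86481 interaction instead of 12. The replicate block with only those groups gave 27 and 6. FASN and ELOVL6 with IMP1088 in control cells were not called when only those groups were fitted. Leaving out 1 library gave ranges of 0.15 to 0.34 for the sterol median with DDD86481 in senescent cells, 0.31 to 0.93 and 0.48 to 1.08 for the fatty acid medians with IMP1088 and DDD86481 in control cells, 6 to 20 and 7 to 16 called members for the IMP1088 and DDD86481 interactions, and -0.42 to -0.23 and -0.33 to -0.14 for their sterol medians. The extremes came without control DMSO replicate 1 for the highest fatty acid medians and the highest counts, without control IMP1088 replicate 1 for the count of 6 and the median of -0.23, without control DMSO replicate 2 (also senescent DMSO replicate 3) for the count of 7, without control DDD86481 replicate 1 for the median of -0.14 and without senescent DDD86481 replicate 3 for the median of 0.15. The cause of each was not tested, though fits of fewer libraries have fewer degrees of freedom. In the other comparisons of 2 groups, same-numbered libraries were paired weakly at most, with r not above 0.1 for every number. For control against senescent DMSO, r was 0.05, 0.06 and 0.11 for numbers 1 to 3, and each library correlated best with its own number. Block values changed calls as counted above.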
